A study of Mus musculus with 5 samples.

Results

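The nuclear genes of oxidative phosphorylation were followed in RAW264.7, a mouse line with macrophage traits, across 3 states. The states were LPS at 0.5 mg/mL with arctigenin, a plant lignan, at 1 μM (2 libraries), LPS alone at 0.5 mg/mL (2 libraries), and vector (1 library), with doses as labelled. LPS is a bacterial cell wall component sensed by macrophages, and its labelled unit is unusually high for cultured cells and could not be checked here. The labels give neither the treatment time nor what the vector contained, and no group with arctigenin or its solvent alone is analysed here. Members were the genes that the deposited annotation places in the pathway "Oxidative phosphorylation", without symbols that start with Atp6v and with at least 50 estimated counts summed over the 5 libraries. The rule found 99 genes, and 89 of them passed the count minimum, out of 21878 gene symbols in the table. Complex I had 37 members by symbol, complex II 4, complex III 9, complex IV 18 and complex V 15, and 6 members belonged to none of these. Just inside the minimum lay Cox7a1 with 60.4 counts and Cox4i2 with 63.1 counts in all, and just outside it Ndufa4l2 with 19.1 counts. All 89 members also passed the filter on low counts used for the test.

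Oxidative phosphorylation takes electrons from NADH (complex I) and succinate (complex II) through ubiquinone, complex III and cytochrome c to complex IV, where oxygen is reduced. Complexes I, III and IV pump protons out of the mitochondrial matrix, and complex V, the ATP synthase, uses their return to make ATP. Macrophages activated by LPS are known to lower respiration and to lean on glycolysis. The subunits made from mitochondrial DNA are not analysed here, so every value is for a nuclear gene. Levels are in CPM, counts scaled to library size with TMM factors, and a gene is called at an adjusted p under 0.05 in edgeR's quasi-likelihood test over all 11575 genes tested.

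Libraries held 19836148 to 21578285 estimated counts, and the members took 0.899% and 0.879% of them with LPS and arctigenin, 0.749% and 0.746% with LPS, and 0.937% with vector. The label of a macrophage line was checked with 10 macrophage markers, whose summed level was 7609 and 6941 CPM with LPS and arctigenin, 6258 and 6115 CPM with LPS, and 8310 CPM with vector. Markers of T cells (4 genes), B cells (3 genes), fibroblasts (4 genes), endothelium (3 genes) and epithelium (4 genes) summed to between 0 and 4.27 CPM per list and library, with 2 of the T cell genes and 1 epithelial gene at 0 throughout. The macrophage marker sum was also higher with LPS and arctigenin than with LPS, but its 10 genes did not move as a group. Between these states 4 were called higher and 2 lower, with a median of log2 −0.02. With LPS against vector 5 were called higher and 2 lower (median log2 0.28), although the sum was lower with LPS. The part of these markers in the results was not tested. In bulk RNA, fewer cells with a transcript and less of it per cell cannot be told apart.

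Most of the pathway was higher in LPS-treated cells that also had arctigenin. With LPS and arctigenin against LPS, 65 of 89 members rose and 3 fell, with 21 not called. Over all genes tested, 22.8% were called higher and 22.0% lower. The median member was 1.29-fold higher (log2 0.37), while the median of all genes was at log2 −0.003. Both arctigenin libraries lay above both LPS libraries in 80 members and below both in 4, against 36.9% and 37.0% of all genes. The changes were small, since 2 members were called with at least a 2-fold change. All 15 members of complex V rose, as did 8 of 9 in complex III, 27 of 37 in complex I, 3 of 4 in complex II and 11 of 18 in complex IV. The 65 rises became 45 with the fit adjusted for length and GC content, where 21.9% of all genes were called higher. They became 40 with curated transcripts only, where 12.6% of all genes were called higher. That fit had a wider common spread between replicates (biological coefficient of variation 20.5%, against 7.13% in the main fit). Without LPS replicate 1 fewer members were called, and the median member was at log2 0.42.

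LPS against vector showed the reverse tilt, less evenly. With LPS, 32 of 89 members fell and 5 rose, where 24.9% of all genes tested were called lower and 27.1% higher. The median member was 1.16-fold lower (log2 −0.22), against log2 −0.01 over all genes. Falls numbered 14 of 37 in complex I, 2 of 4 in complex II, 3 of 9 in complex III, 6 of 18 in complex IV and 6 of 15 in complex V. The rises were Uqcrb, Cox17, Cox15, Ppa1 and Tcirg1. Both LPS libraries lay below vector in 63 members and above it in 14, against 46.0% and 43.7% of all genes. The single vector library has no replicate, and its scale sets the count. With library totals in place of TMM, the median of all genes was −0.26 and that of the members −0.47, a gap of −0.20 on both scales. The members called were then 66 lower and 4 higher, with 39.7% of all genes called lower and 17.4% higher. The total of 37 calls became 17 without LPS replicate 1, 24 without LPS replicate 2 and 14 with curated transcripts only.

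**Figure D1:**
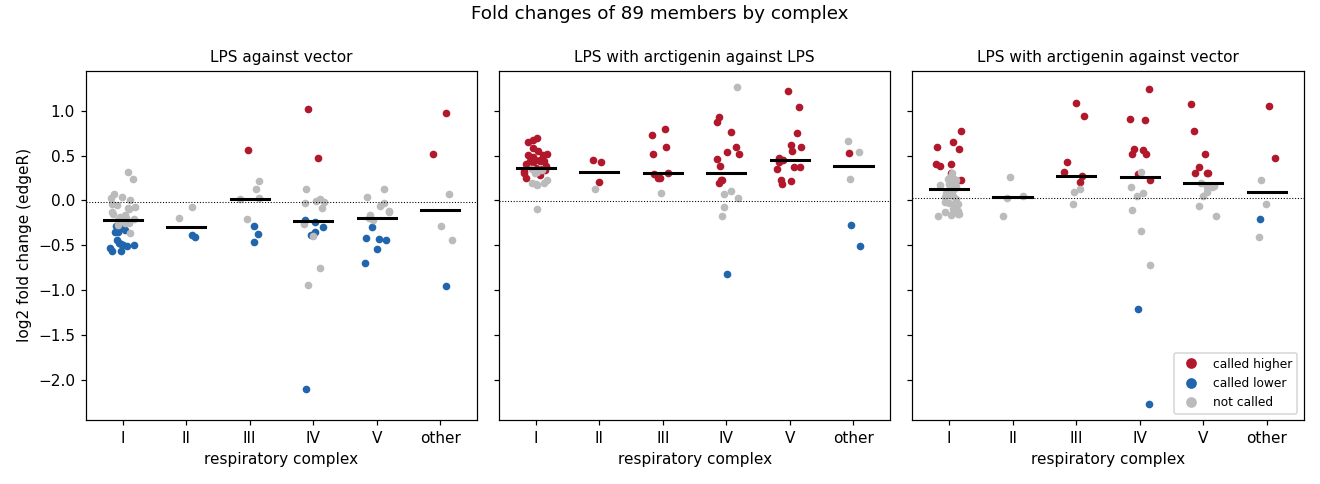
Each point is 1 of 89 members, placed by respiratory complex (horizontal axis) and by edgeR log2 fold change (vertical axis), with called genes in colour, black bars at the median of each complex and a dotted line at the median of all genes tested. In the middle panel all 15 complex V points are called higher, and in the left panel the medians lie below 0 in complexes I, II, IV and V.

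Summed over members, the complex I level was 1858 and 1799 CPM with LPS and arctigenin, 1403 and 1425 CPM with LPS, and 1670 CPM with vector. Complex V summed to 3395 and 3251 CPM with LPS and arctigenin, 2657 and 2690.1 CPM with LPS, and 2960 CPM with vector. The largest parts of the vector sum were Atp5a1 (766 CPM) and Atp5b (768 CPM), neither of which was called for LPS against vector. In both complexes the LPS libraries were lowest and the arctigenin libraries highest. Complex III departed from this order. Its sum was 1037 and 995 CPM with LPS and arctigenin, 768 and 791 CPM with LPS, and 749.6 CPM with vector, so LPS did not lie below vector. This rested on Uqcrb, at 128 and 139 CPM with LPS and 90.7 CPM with vector, a wider gap than that of the sum. Complex II reached 412 and 409 CPM with LPS and arctigenin, 339.7 and 325 CPM with LPS, and 419.8 CPM with vector, so there the arctigenin libraries were not the highest. Complex IV reached 2066 and 1967 CPM, 1514 and 1511 CPM, and 1587 CPM in the same order of groups. The order against vector rests on the TMM scale of that single library.

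**Figure D2:**
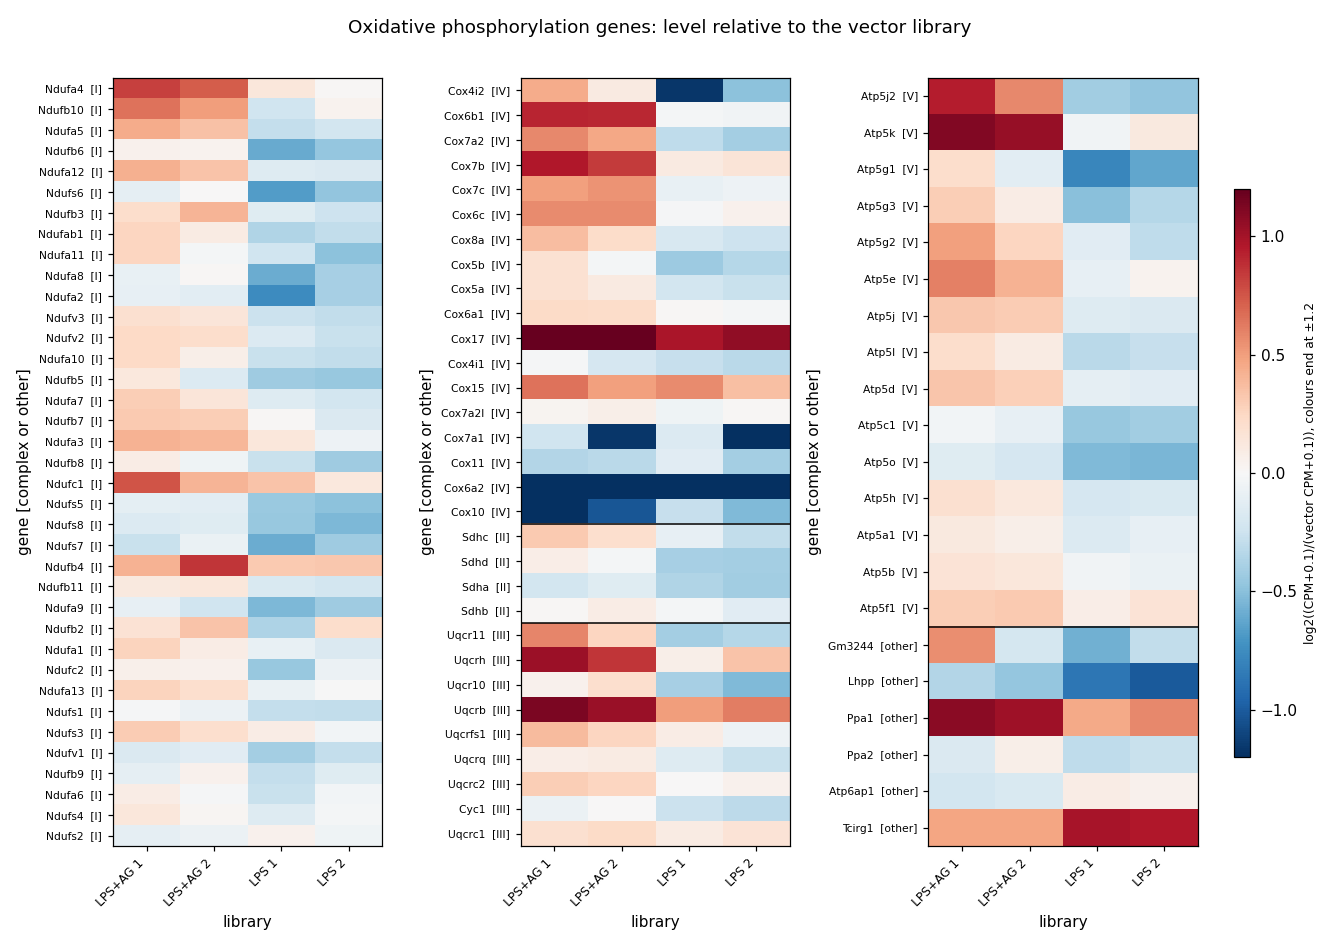
Colour gives log2 of (CPM + 0.1) in a library over (CPM + 0.1) in the vector library for the 89 members (rows, sorted within each complex by the change between LPS with arctigenin and LPS) in 4 libraries (columns), with the colour scale ending at ±1.2. Most rows are redder in the arctigenin columns than in the LPS columns. Cox6a2 and Cox10 are blue in all 4 columns.

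Complex I, the NADH dehydrogenase, had no member called higher with LPS against vector. Ndufs6, an accessory subunit of the electron-input arm, had 54.1 and 58.6 CPM with LPS and arctigenin, 36.8 and 42.1 CPM with LPS, and 58.4 CPM with vector. Both LPS libraries lay below vector and below both arctigenin libraries. It fell 1.48-fold with LPS (log2 −0.57 ± 0.11, SE, adjusted p = 0.00193) and rose 1.43-fold with arctigenin (log2 0.52 ± 0.10, adjusted p = 0.00164). Ndufa2, another accessory subunit, had 32.7 and 31.9 CPM, 20.7 and 26.5 CPM, and 34.97 CPM in the same order, a fall of 1.48-fold and a rise of 1.37-fold that was lost in 3 of 13 alternatives. Ndufb6, of the membrane arm, had 25.6 and 25.5 CPM, 16.2 and 17.9 CPM, and 24.7 CPM, a fall of 1.45-fold and a rise of 1.50-fold. The LPS values of Ndufa2 and Ndufb6 did not overlap those of the other groups. The LPS calls of both were lost without LPS replicate 1 (log2 −0.40 and −0.46) and with curated transcripts only (adjusted p = 0.0763 and 0.0536). Each of these genes has 1 transcript, a curated one, so its own counts were the same in the curated fit. Their log2 values there were −0.557 and −0.524, against −0.568 and −0.535 in the main fit.

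Core subunits of complex I varied among themselves. Ndufs1, the large iron-sulfur subunit, had 117 and 112 CPM with LPS and arctigenin, 96.7 and 96.1 CPM with LPS, and 118 CPM with vector. It fell 1.23-fold with LPS (adjusted p = 0.00913) and rose 1.19-fold with arctigenin (adjusted p = 0.00950), and both calls were lost when either LPS replicate was left out (adjusted p = 0.0549 and 0.0551 for the fall, 0.0711 and 0.0727 for the rise). Ndufv1, which binds FMN and NADH, fell 1.27-fold with LPS (adjusted p = 0.0262, and 0.150 without LPS replicate 1). Its change with arctigenin was log2 0.20 ± 0.10 (adjusted p = 0.124). Ndufs7 and Ndufs8, further iron-sulfur core subunits named after their values were seen, also fell with LPS (log2 −0.51 ± 0.13 and −0.49 ± 0.10, adjusted p = 0.00689 and 0.00208). The fall of Ndufs7 was lost without LPS replicate 1 (0.0665). Ndufs4, an accessory subunit needed for a stable complex, was not called in either comparison, with log2 −0.09 ± 0.10 for LPS and log2 0.17 ± 0.09 for arctigenin.

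Ndufa4 had the largest change with arctigenin among members with a complex I symbol. Its symbol places it in complex I, but its protein is known as a subunit of complex IV. It had 123 and 115 CPM with LPS and arctigenin, 76.4 and 70.3 CPM with LPS, and 69.6 CPM with vector. The arctigenin libraries stood above the others, and LPS and vector lay close together (log2 0.08 ± 0.09, adjusted p = 0.511). Ndufa4 rose 1.62-fold with arctigenin (log2 0.70 ± 0.07, adjusted p = 5.69e-05). Ndufb10, of the membrane arm, showed a like pattern with 45.5 and 40.9 CPM, 24.5 and 29.7 CPM, and 28.9 CPM, and rose 1.59-fold with arctigenin (adjusted p = 0.00111). AA467197, listed in RefSeq with the synonym Nmes1, is no member and was chosen after its values were seen. Its human counterpart is known as a relative of NDUFA4 that takes its place in complex IV during inflammation. It had 91.7 and 66.9 CPM with LPS and arctigenin, 68.8 and 68.8 CPM with LPS, and 0.239 CPM with vector. Per kilobase of transcript, it reached 122 and 89.1 CPM with LPS and arctigenin beside 249.9 and 234 CPM of Ndufa4, and 91.6 and 91.6 CPM with LPS beside 155 and 143 CPM of Ndufa4. The level of AA467197 did not pass the test between LPS with arctigenin and LPS (log2 0.205 ± 0.135, adjusted p = 0.254).

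Complex II, succinate dehydrogenase, also works in the citric acid cycle. Sdha, the flavoprotein, had 162 and 170.4 CPM with LPS and arctigenin, 146 and 141 CPM with LPS, and 188 CPM with vector, so the arctigenin libraries lay between LPS and vector. It fell 1.31-fold with LPS (log2 −0.39 ± 0.07, adjusted p = 0.00148) and rose 1.16-fold with arctigenin (adjusted p = 0.0192, lost in 5 of 13 alternatives). Sdhd, a membrane anchor, had 151 and 141 CPM, 109 and 108 CPM, and 143 CPM, a fall of 1.32-fold and a rise of 1.35-fold. Sdhc, the other anchor, rose 1.37-fold with arctigenin (adjusted p = 0.00380, and 0.644 with curated transcripts only). Sdhb, the iron-sulfur subunit, was not called, at 44.3 and 46.9 CPM, 43.3 and 40.2 CPM, and 44.05 CPM.

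Complex III, the cytochrome bc1 complex, had 1 member called higher with LPS and 3 called lower. Uqcrb, a small subunit near the ubiquinone site, had 199 and 186 CPM with LPS and arctigenin, 128 and 139 CPM with LPS, and 90.7 CPM with vector. The 3 groups did not overlap and stepped upward with each agent. It rose 1.47-fold with LPS (log2 0.56 ± 0.09, adjusted p = 0.000390) and 1.44-fold more with arctigenin (log2 0.52 ± 0.07, adjusted p = 0.000198). Uqcrh, the hinge subunit, had 165 and 147 CPM, 84.97 and 102 CPM, and 80.9 CPM, and rose 1.67-fold with arctigenin (adjusted p = 0.000334). Uqcr11 had 52.4 and 41.9 CPM, 26.4 and 27.6 CPM, and 35.0 CPM, and rose 1.75-fold with arctigenin (adjusted p = 0.000459). Its fall with LPS (adjusted p = 0.0486) was lost in 6 of 11 alternatives. Uqcr10 fell 1.38-fold with LPS and rose 1.51-fold with arctigenin, and the fall was lost without LPS replicate 2 (adjusted p = 0.0686) and with curated transcripts only (0.0636).

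The core proteins of complex III gave smaller values. Uqcrc2 rose 1.19-fold with arctigenin (adjusted p = 0.00689, and 0.0818 without LPS replicate 1), at 179.5 and 176 CPM, 147 and 152 CPM, and 147 CPM. Uqcrfs1, the Rieske iron-sulfur protein, rose 1.23-fold with arctigenin (adjusted p = 0.0140, and 0.141 without LPS replicate 2). Uqcrc1 was not called in either comparison, with log2 0.08 ± 0.06 for arctigenin and log2 0.13 ± 0.07 for LPS. Cyc1, cytochrome c1, fell 1.22-fold with LPS (adjusted p = 0.0396) and rose 1.19-fold with arctigenin (0.0380), and the calls were lost in 5 of 11 and 7 of 13 alternatives.

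**Figure D3:**
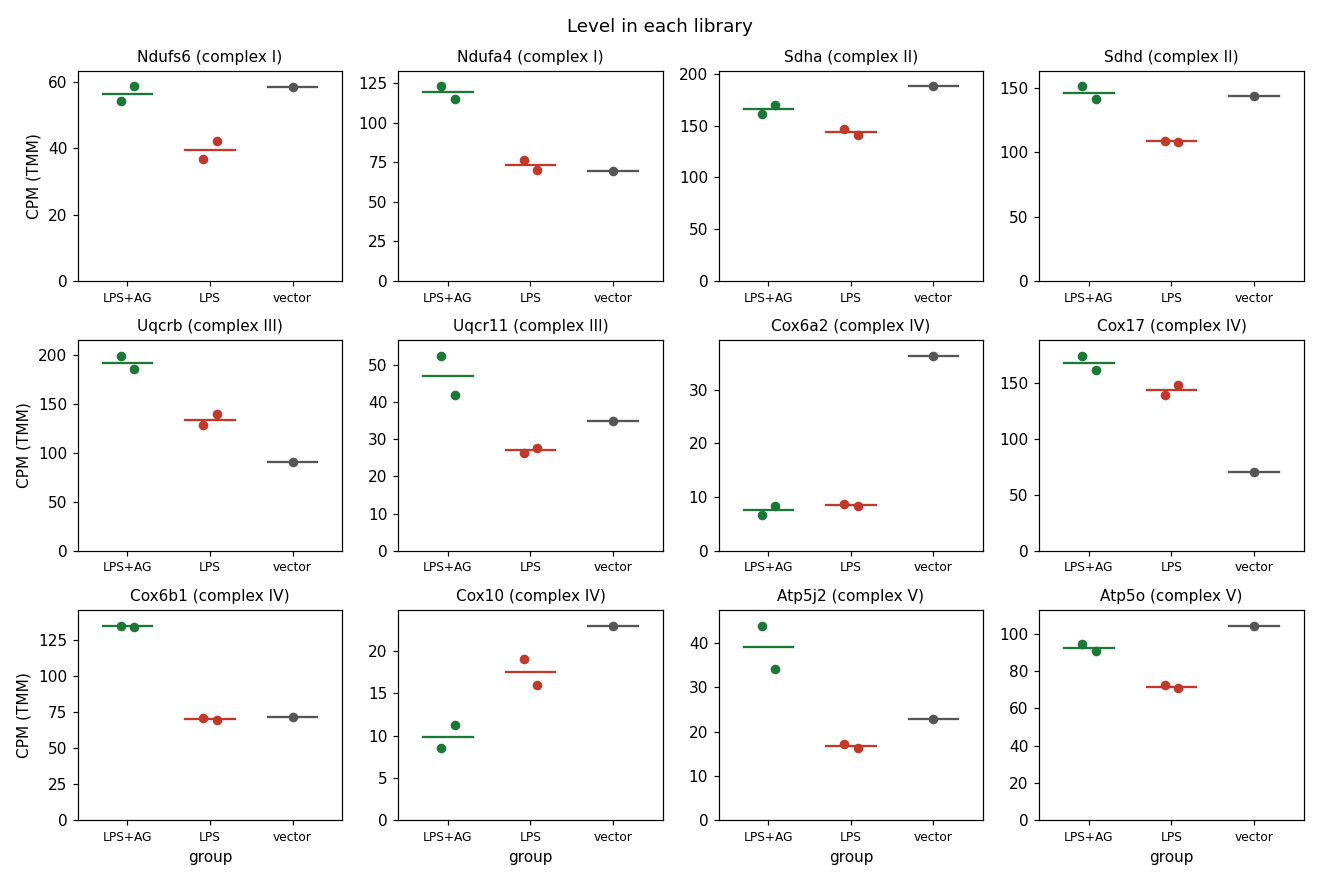
TMM-scaled CPM (vertical axis, from 0) of 12 members in each library, with lines at the group means, for LPS with arctigenin (2 libraries), LPS (2 libraries) and vector (1 library). Cox6b1 is near 135 CPM with arctigenin and near 70 CPM in the other groups, while Cox6a2 is high in vector alone.

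Complex IV, cytochrome c oxidase, held the members that moved most with LPS. Cox6a2, the subunit isoform known from heart and skeletal muscle, had 6.71 and 8.28 CPM with LPS and arctigenin, 8.63 and 8.23 CPM with LPS, and 36.2 CPM with vector. It fell 4.30-fold with LPS (log2 −2.10 ± 0.16, adjusted p = 3.64e-06), while LPS with arctigenin did not pass the test against LPS (log2 −0.17 ± 0.16, adjusted p = 0.410). Its ubiquitous counterpart Cox6a1 had 110.2 and 109.6 CPM, 94.6 and 92.6 CPM, and 93.8 CPM. Per kilobase, Cox6a2 stood at 13.1 and 12.5 CPM beside 166 and 162 CPM of Cox6a1 in LPS, and at 55.1 CPM beside 164 CPM in vector. Cox6a1 rose 1.17-fold with arctigenin (adjusted p = 0.0147). That call failed in 5 of 13 alternatives, with 0.502 after the length and GC correction.

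Among the factors that build complex IV, Cox17 and Cox15 rose with LPS and Cox10 fell with arctigenin. Cox17, which carries copper to the oxidase, had 174 and 161 CPM with LPS and arctigenin, 139 and 147 CPM with LPS, and 70.6 CPM with vector. It rose 2.03-fold with LPS (log2 1.02 ± 0.09, adjusted p = 6.31e-06). Its further rise of 1.17-fold with arctigenin (adjusted p = 0.0187) turned to log2 −0.04 after the length and GC correction. Cox15, of heme A synthesis, rose 1.39-fold with LPS (adjusted p = 0.0101, lost in 3 of 11 alternatives), at 56.2 and 50.1 CPM, 52.8 and 45.8 CPM, and 35.6 CPM. Cox10, which makes the heme O precursor of heme A, moved against the pathway. It had 8.57 and 11.2 CPM with LPS and arctigenin, 19.02 and 15.96 CPM with LPS, and 23.02 CPM with vector. The arctigenin libraries lay below all others, and the fall was 1.77-fold (log2 −0.82 ± 0.16, adjusted p = 0.00259, and 0.0524 with curated transcripts only).

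Structural subunits of complex IV rose with arctigenin. Cox6b1, which helps join the monomers, had 135 and 134 CPM with LPS and arctigenin, 70.8 and 69.8 CPM with LPS, and 71.7 CPM with vector. It rose 1.92-fold with arctigenin (log2 0.94 ± 0.07, adjusted p = 4.92e-06), and LPS and vector differed by log2 −0.03 ± 0.08. Cox7a2 had 61.4 and 57.1 CPM, 33.5 and 31.1 CPM, and 41.3 CPM, and rose 1.84-fold (log2 0.88 ± 0.09, adjusted p = 4.75e-05). Cox7a2l, its relative known to tie complexes III and IV together, was not called, at 182 and 187 CPM, 172 and 179.9 CPM, and 178 CPM. Its change was log2 0.07 ± 0.06 (SE) with arctigenin and −0.02 ± 0.07 with LPS. Cox5b and Cox5a fell 1.31-fold and 1.18-fold with LPS and rose 1.38-fold and 1.31-fold with arctigenin, and Cox4i1 fell 1.23-fold with LPS. The LPS calls of these 3 genes were each lost without LPS replicate 1 (adjusted p = 0.0818, 0.0782 and 0.0690). The rise of Cox4i1 with arctigenin (1.15-fold, adjusted p = 0.0478) was lost in 9 of 13 alternatives. The tissue isoforms Cox4i2 and Cox7a1 stayed below 1 CPM in every library and were not called.

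**Figure D4:**
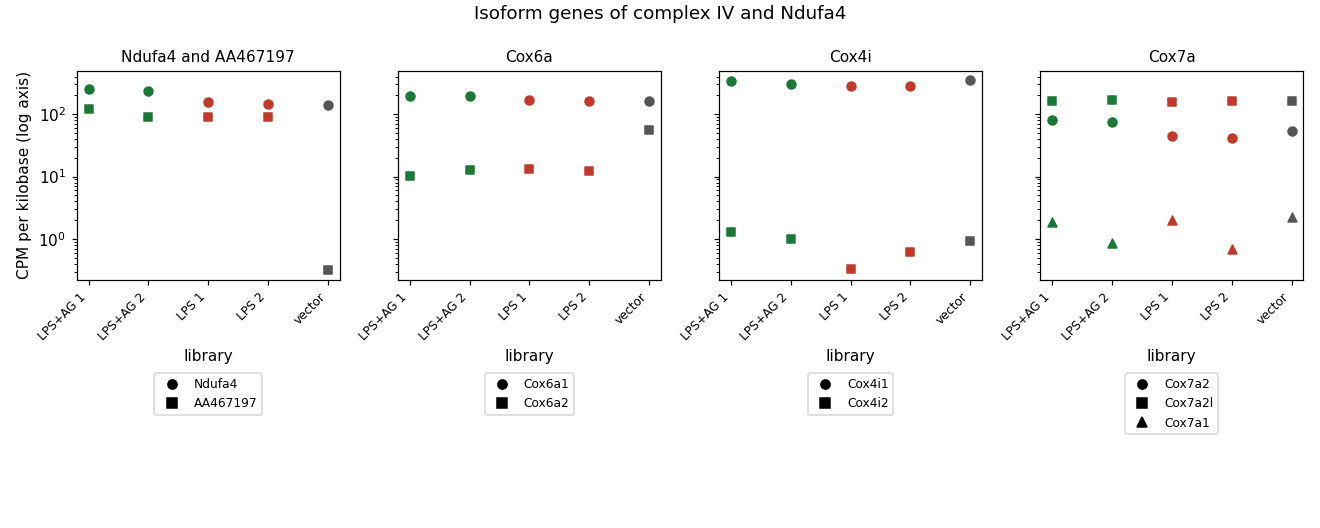
CPM per kilobase of transcript (vertical log axis) in each of the 5 libraries for Ndufa4 with AA467197 and for the isoform genes of the Cox6a, Cox4i and Cox7a subunits, with a marker shape for each gene. AA467197 is near 0.3 in vector and near 90 or above in the other libraries, and Cox6a2 is the lower of its pair throughout.

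Complex V, the ATP synthase, had every member called higher with arctigenin. The count was 15 of 15 in 8 of the 13 alternatives and 14 with library totals. It was 11 after the length and GC correction, 13 with curated transcripts only, 12 without LPS replicate 1 and 13 without LPS replicate 2. Atp5j2, the membrane subunit f, had 43.9 and 34.1 CPM with LPS and arctigenin, 17.1 and 16.4 CPM with LPS, and 22.8 CPM with vector. It rose 2.33-fold with arctigenin (log2 1.22 ± 0.13, adjusted p = 7.43e-05). Atp5k, the membrane subunit e, had 23.8 and 22.7 CPM, 10.7 and 11.9 CPM, and 10.99 CPM, and rose 2.06-fold (log2 1.04 ± 0.13, adjusted p = 0.000139). In both genes the arctigenin libraries stood above all others. Atp5j2 fell 1.36-fold with LPS (adjusted p = 0.0393, lost in 5 of 11 alternatives), while Atp5k was near its vector level (log2 0.04 ± 0.16).

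Atp5g1, one of 3 genes for the proton-carrying c subunit, had 52.1 and 41.2 CPM with LPS and arctigenin, 26.1 and 29.2 CPM with LPS, and 44.97 CPM with vector. It fell 1.63-fold with LPS (log2 −0.70 ± 0.15, adjusted p = 0.00292) and rose 1.69-fold with arctigenin (log2 0.75 ± 0.12, adjusted p = 0.000975). Atp5o, of the stalk that holds the catalytic head, had 94.2 and 90.7 CPM, 72.2 and 71.02 CPM, and 104 CPM. It fell 1.46-fold with LPS (adjusted p = 0.000321) and rose 1.29-fold with arctigenin (adjusted p = 0.00169, and 0.0878 after the length and GC correction). The catalytic head itself changed less. Atp5a1 rose 1.17-fold with arctigenin, at 830.2 and 806 CPM, 683 and 717 CPM, and 766 CPM, and Atp5b rose 1.16-fold, at 863 and 843 CPM, 747 and 725 CPM, and 768 CPM. Neither was called with LPS (log2 −0.13 ± 0.07 and −0.06 ± 0.07), and the arctigenin call of both was lost without LPS replicate 1 (adjusted p = 0.124 and 0.0720).

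Promoters of Atp5j2 and Atp5k are shown because, after Cox6a2, which is named only, these were the members with the largest called changes for LPS against vector and LPS with arctigenin against LPS. The comparison of LPS with arctigenin against vector was not used for this choice. Each window runs from 250 bases before to 50 after the RefSeq start, on build GRCm38.p6, 5′ to 3′ on the minus strand of chromosome 5. Capitals mark matches to motifs searched on both strands. In Atp5j2 (chr5:145191492-145191791) the capitals are a YY1 match, and in Atp5k (chr5:108434350-108434649) they are 2 overlapping NRF1 matches on opposite strands, followed by an ETS match.
Atp5j2: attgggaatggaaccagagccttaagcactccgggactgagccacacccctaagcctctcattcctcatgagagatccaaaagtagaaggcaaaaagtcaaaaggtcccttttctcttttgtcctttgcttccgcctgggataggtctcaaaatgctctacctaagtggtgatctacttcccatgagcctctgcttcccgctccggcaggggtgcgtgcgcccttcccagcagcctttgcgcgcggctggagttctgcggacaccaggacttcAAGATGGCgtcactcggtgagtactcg
Atp5k: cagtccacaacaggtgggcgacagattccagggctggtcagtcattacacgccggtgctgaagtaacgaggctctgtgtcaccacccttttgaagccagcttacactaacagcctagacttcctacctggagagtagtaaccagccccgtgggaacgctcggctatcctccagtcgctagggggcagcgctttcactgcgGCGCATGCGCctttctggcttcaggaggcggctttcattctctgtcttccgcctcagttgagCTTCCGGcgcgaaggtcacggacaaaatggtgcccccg

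NRF1, GABP (an ETS factor) and YY1 are known regulators of nuclear mitochondrial genes. A window was found for 72 of 89 members and 9333 genes tested. The NRF1 letters GCGCATGC were in 13.9% of the members and 6.24% of the genes tested, and the YY1 letters AAGATGGC in 15.3% and 5.59%. The ETS letters CCGGAAG were in 25.0% and 21.2%, and the CRE letters TGACGTCA in 5.56% and 3.73%. The ERRA letters TCAAGGTCA were in 2 of 72 members (2.78%) and 32 of 9333 genes tested (0.343%). The NF-kB letters GGACTTTCC were in none of the 72 windows and in 48 of 9333 genes tested (0.514%). The ERRA and NF-kB letters are rare, so with 72 windows their shares among members rest on too few matches to be compared. These shares describe letters in a fixed window, and no binding was measured. Of the factors of these motifs only Yy1 is given with its level, chosen from a list of 14 regulators after its values were seen. Of those 14, 4 rose and 1 fell with arctigenin, and 8 fell and 2 rose with LPS. The share that rose with arctigenin was 28.6%, against 22.8% of all genes. With LPS 57.1% fell, against 24.9% of all genes. Yy1 was at 59.6 and 57.7 CPM with LPS and arctigenin, 42.95 and 44.3 CPM with LPS, and 69.55 CPM with vector. It rose with arctigenin (log2 0.43 ± 0.08, adjusted p = 0.00180) and fell with LPS (log2 −0.67 ± 0.09, adjusted p = 0.000206). A link between Yy1 and the members was not tested.

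The 6 members outside the complexes did not move together. Tcirg1, a subunit of the lysosomal proton pump, had 357 and 356 CPM with LPS and arctigenin, 509.9 and 500.5 CPM with LPS, and 257 CPM with vector. It rose 1.97-fold with LPS (adjusted p = 2.84e-06) and fell 1.42-fold with arctigenin (adjusted p = 8.93e-05), against the respiratory genes in both comparisons. Atp6ap1, which belongs to the same pump, fell 1.21-fold with arctigenin (adjusted p = 0.00380, and 0.0588 without LPS replicate 1). Ppa1, the cytosolic pyrophosphatase, had 104 and 100.1 CPM, 67.8 and 73.5 CPM, and 49.3 CPM, and rose 1.43-fold with LPS and 1.45-fold with arctigenin. Lhpp, a phosphatase, fell 1.94-fold with LPS (adjusted p = 0.00612, and 0.449 with curated transcripts only). Ppa2, the mitochondrial pyrophosphatase, and Gm3244, annotated by GENCODE as a pseudogene, were not called.

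On build mm9, positions of 8 members with large changes are given from the GENCODE annotation, where each is a protein-coding gene. On chromosome 7, Cox6a2 spans 135348950 to 135349880 and Cox6b1 spans 31401993 to 31411170. Cox17 spans 38347077 to 38362383 of chromosome 16, and Cox10 spans 63776129 to 63892970 of chromosome 11. Ndufa4 spans 11850373 to 11857446 of chromosome 6, and Uqcrb spans 67001553 to 67006314 of chromosome 13. On chromosome 5, Atp5j2 spans 145944567 to 145952931 and Atp5k spans 108862263 to 108863467. Cox17 is on the plus strand, and the other genes of this group are on the minus strand.

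Genes around the pathway were read as lists, from which the examples were chosen after their values were seen. The vacuolar proton pump shares the annotated pathway. Of 19 tested genes with symbols that start with Atp6v or Atp6ap, the member Atp6ap1 among them, 14 fell and 0 rose with arctigenin, with a median of log2 −0.40. The share that fell was 73.7%, against 22.0% of all genes tested. With LPS 6 rose (31.6%, near the 27.1% of all genes) and 1 fell. Atp6v0d2, an isoform of the membrane part, was at 0.319 and 0.316 CPM with LPS and arctigenin and at 4.32 and 5.37 CPM with LPS. These levels are low, and the gap is much wider than the list median of log2 −0.40. Of 45 assembly factors of the respiratory complexes, 11 rose and 7 fell with arctigenin (median log2 0.13), and 5 rose and 13 fell with LPS (median −0.28). The 24.4% that rose with arctigenin and the 28.9% that fell with LPS were near the 22.8% and 24.9% of all genes. Higd1a, a factor of complex IV, rose 1.80-fold with arctigenin, at 30.3 and 27.4 CPM against 16.2 and 15.9 CPM in LPS. Sco2, a copper chaperone of complex IV, was at 3.83 and 3.32 CPM with LPS and arctigenin, 7.60 and 7.78 CPM with LPS, and 19.8 CPM with vector, and fell in both comparisons.

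Of 14 regulators of mitochondrial biogenesis, 8 fell and 2 rose with LPS (median log2 −0.43), and 4 rose and 1 fell with arctigenin (median 0.14). The share that fell with LPS was 57.1%, against 24.9% of all genes, and the share that rose with arctigenin was 28.6%, against 22.8%. Tfb2m, a factor of mitochondrial transcription, was at 12.4 and 8.91 CPM with LPS and arctigenin, 15.35 and 12.9 CPM with LPS, and 52.9 CPM with vector. It fell with LPS (log2 −1.90, adjusted p = 1.87e-05) and was not called between LPS with arctigenin and LPS (log2 −0.41, adjusted p = 0.0771). Tfam, which packs mitochondrial DNA, was at 35.1 and 33.6 CPM, 35.2 and 33.6 CPM, and 58.3 CPM, and fell with LPS (log2 −0.76, adjusted p = 0.000172), with log2 −0.002 ± 0.09 between LPS with arctigenin and LPS. Of 14 genes of ubiquinone synthesis and electron entry, 5 fell and 1 rose with LPS, and 3 rose and 2 fell with arctigenin. These were 35.7% lower with LPS (24.9% of all genes) and 21.4% higher with arctigenin (22.8% of all genes). The gene that rose with LPS was Gpd2, the glycerol phosphate dehydrogenase of the inner membrane, at 104 and 105 CPM with LPS and arctigenin, 140.5 and 131 CPM with LPS, and 52.7 CPM with vector.

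LPS with arctigenin against vector shares its libraries with both other comparisons, so its values only stand beside theirs. By TMM, 33 of 89 members were higher and 3 lower, with 30.4% of all genes tested called higher and 25.7% lower. Both arctigenin libraries lay above vector in 58 members and below it in 18, against 46.4% and 44.2% of all genes. The direction of this balance rests on the scale of the vector library. With library totals 12 members were called higher and 26 lower, beside 18.5% and 41.0% of all genes. The median member was at log2 −0.13 on that scale and 0.17 by TMM, and the median of all genes was at −0.27 and 0.025. Members called higher with values above 2-fold by TMM were Cox17 (2.37-fold), Uqcrb and Atp5k (both 2.12-fold) and Ppa1 (2.07-fold). Cox6a2 (4.83-fold) and Cox10 (2.32-fold) were lower. Cox6b1 and Ndufa4 stood 1.88-fold and 1.71-fold above vector.

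Transcript length moved with these results. The 88 members with a length had a median of 724 bases, against 2258 bases over the genes tested. Among the other genes at or under that length, 33.9% were called higher and 11.6% lower with arctigenin, with a median of log2 0.20 (638 genes). For LPS against vector, 20.4% of these short genes were called higher and 27.0% lower, with a median of −0.09. After the correction for length and GC content 45 members rose and 3 fell with arctigenin, where 21.9% of all genes were called higher and 21.8% lower. With LPS 30 members fell and 5 rose, where 28.6% of all genes were called lower and 22.4% higher. The member medians were then 0.25 and −0.18, against −0.01 and −0.09 for all genes. The gap between members and all genes was 0.26 with arctigenin (0.37 in the main fit). With LPS it was −0.09 (−0.20 in the main fit).

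**Figure D5:**
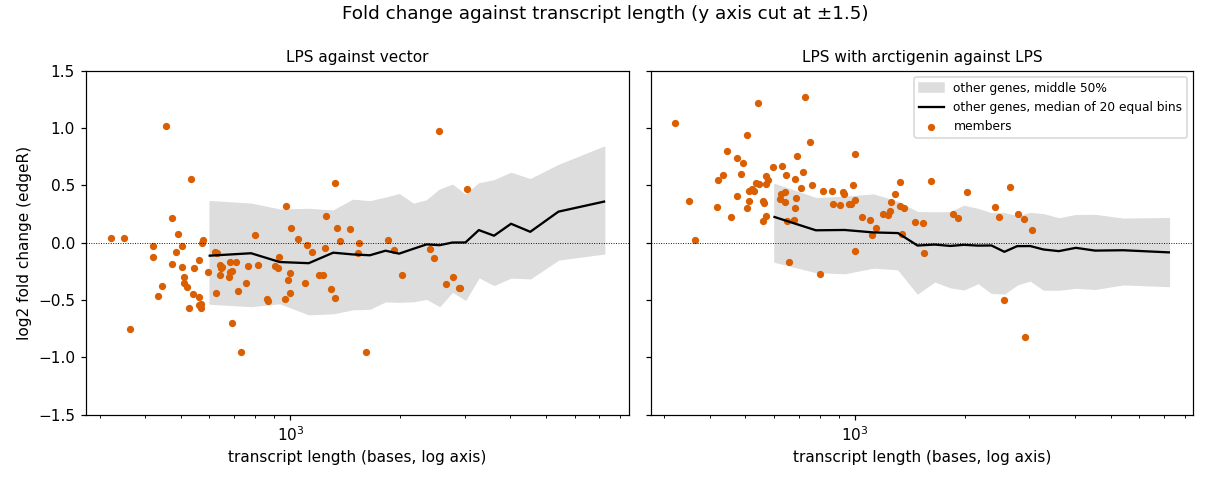
Log2 fold change from edgeR (vertical axis, cut at ±1.5) against transcript length in bases (horizontal log axis) for the members (orange points) and for the other genes tested (black line, median of 20 equal bins, with the middle 50% of values in grey). Members are short, and in the right panel most of their points lie above the black line.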

How the data were processed

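RNA was sequenced in 5 libraries, and the authors deposited an expected count (estimated, with decimals) for each of 75959 RefSeq transcripts. The submitters' processing notes name build mm9 and the tools HISAT2, Trimmomatic, HTSeq, Cufflinks and DESeq. Use of strand, versions and the source of the decimals are not given in the sources used here. Overlapping genes therefore cannot be separated, and members with processed pseudogenes could share reads with them.

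Counts were summed per symbol and rounded. The test was edgeR 4.0.16 under R 4.3.3 (filterByExpr with minimum counts of 10 and 15 in total, TMM, robust quasi-likelihood fit, group as the only term, 2 residual degrees of freedom, Benjamini-Hochberg). TMM factors were 0.942 and 0.956 for LPS with arctigenin, 0.981 and 0.972 for LPS, and 1.16 for vector. Variation of the vector group was taken from the other groups. The labels name no separate cultures, so p-values measure the spread between these samples, which may be technical. DESeq2 1.42.0, limma-voom (limma 3.58.1) and the other alternatives appear in the closing section. The fit was tested on simulated data for LPS against vector. There 50 of 11270 genes were changed at each size. In the data 24.9% of all genes were called lower and 27.1% higher for this comparison. In the simulation the fit recovered 56% of true changes of log2 −0.5 and of log2 0.5, 96% of log2 −1 and 100% of log2 1. Of 11070 unchanged genes, 10 were called. Whether these rates hold for the data, with a single vector library, was not tested. A member not called can still have changed by a small amount.

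Named genes were, in each complex, up to 3 called falls and 2 called rises by size, provided that groups did not overlap and mean log2 CPM reached 2, plus fixed key genes. Members and lists were chosen with earlier results of these data known. Lengths and GC content came from GENCODE transcripts of NCBIM37, and promoters from RefSeq on GRCm38.p6.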

Additional observations from a re-analysis of the deposited data

How the results depend on the processing

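The number of members called with LPS and arctigenin against LPS was 68, and 42 with curated transcripts only and 45 to 66 when single libraries were left out. The replicate numbers are not said to mark a shared culture, and deviations of same-numbered libraries from their group means correlated at r = −0.008 across genes. With the replicate block the count was 70. For LPS against vector the count was 37, and 70 with library totals (chosen after seeing the data), 14 with curated transcripts only and 17 to 43 with single libraries left out. For LPS with arctigenin against vector it was 36, and 21 with curated transcripts only and 28 to 38 with single libraries left out. Of the 65 members called higher with arctigenin against LPS, 32 were called in all 13 alternatives and 62 kept their sign. Of the 32 called lower with LPS, 10 were called in all 11 alternatives and 31 kept their sign. The cause of these shifts was not tested. The biological coefficient of variation was 20.5% with curated transcripts only and 7.13% in the main fit. A call lost with curated transcripts only therefore need not reflect a change in the counts of that gene. DESeq2 called 55, 27 and 26 members in the 3 comparisons in the order given, limma-voom 68, 34 and 36, and edgeR with RLE size factors 67, 39 and 33. Each fit without 1 library, and the fit with the replicate block, had 1 residual degree of freedom.

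Some log2 values changed sign in at least 1 alternative, in 23 members for LPS against vector, 7 for LPS with arctigenin against LPS and 40 for LPS with arctigenin against vector. Among members called in the comparison and not described above, these were Ndufab1 (−0.23 with arctigenin against LPS alone, and 0.275 with LPS against vector) and Ndufa13 (−2.24 with arctigenin against LPS alone), in each case with curated transcripts only, and Ndufv2 (−0.0685 for LPS with arctigenin against vector with library totals). Of the members described, the sign changed with library totals, for LPS against vector, in Atp5k (−0.214), Atp6ap1 (−0.184), Ndufa4 (−0.176), Uqcrc1 (−0.121), Uqcrc2 (−0.227), Uqcrfs1 (−0.236) and Uqcrh (−0.0406). For calls of LPS with arctigenin against vector it changed in Cox6a1 (−0.0657), Uqcrc1 (−0.0848) and Uqcrc2 (−0.0199). After the length and GC correction it changed in Cox6a1 (0.0777), Cox6b1 (0.00481) and Cox7a2l (0.0388) for LPS against vector, and Cox17 (−0.0364) and Cox7a2l (−0.0293) for LPS with arctigenin against LPS. For LPS against vector, Cox6a1 was at 0.00252 without the count filter and 0.00765 with curated transcripts only. With single libraries left out, the same comparison ranged from −0.0411 to 0.117 for Atp5k, −0.0149 to 0.0127 for Cox6a1, −0.0503 to 0.0154 for Cox7a2l, −0.24 to 0.0449 for Ndufb10, −0.000435 to 0.0539 for Uqcrc2 and −0.0618 to 0.0928 for Uqcrfs1. Of these values, only those of Atp6ap1 and Uqcrc2 for LPS with library totals were called.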
